A study of Rattus norvegicus with 8 samples.

Results

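The genes described here encode catalase, 5 glutathione peroxidases, 3 superoxide dismutases and a glutaredoxin: Cat, Gpx1, Gpx3, Gpx4, Gpx7, Gpx8, Sod1, Sod2, Sod3 and Glrx. They were found on the arrays by matching each probe's RefSeq accession, without its version, to the RefSeq gene table of the GRCr8 assembly. This gave 11 probes for the 10 genes, of 30367 probes and 15154 named genes in all, with 2 probes for Gpx4 and 1 for each other gene. All 11 were well above background in both channels on all 8 arrays, so none was lost to the filter that left 25296 probes to be tested.

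The RNA came from primary cortical and hippocampal neurons prepared from E18 Sprague Dawley rats and grown for 7 days in vitro. The 8 Agilent arrays, with 2 channels each, formed 4 groups of 2, and each array set the RNA of treated neurons (Cy5) against that of vehicle-treated neurons (Cy3). Neurons were given 1 µM CAT-SKL for 24 h, 1 µM ADDL for 24 h, CAT-SKL and then ADDL for 24 h each (CAT-SKL+ADDL), or ADDL and then CAT-SKL for 24 h each (ADDL+CAT-SKL), the order of agents being read from the order in the name. ADDL are soluble oligomers of the amyloid-beta peptide, and CAT-SKL is a catalase protein that carries a targeting signal for peroxisomes; it was added as protein, so the Cat probe reads the rat cells' own gene. The study asked which genes respond to ADDL with and without the antioxidant. All groups share the tissue, the strain and the time in culture, no dye swap was made, and whether the vehicle RNA was 1 pool is not given in the sources used here.

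Reactive oxygen is removed in steps. Superoxide dismutases turn superoxide into hydrogen peroxide: Sod1 does so in the cytosol, Sod2 in mitochondria and Sod3 outside the cell. Catalase then splits hydrogen peroxide in peroxisomes, while glutathione peroxidases reduce it, and lipid peroxides, at the cost of glutathione. Gpx1, Gpx3 and Gpx4 carry selenocysteine at the active site, Gpx7 and Gpx8 sit in the endoplasmic reticulum and use cysteine, and glutaredoxin frees protein thiols from glutathione. In the brain, neurons are known to hold little catalase and to lean on glutathione precursors supplied by astrocytes.

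Upstream sequence is shown for 3 genes on which the results below turn: Cat, Sod2 and Gpx1. With loess, the Cat probe lay below vehicle on every array and that of Sod2 above it on every array. The treatments of Gpx1 lay farthest apart among the members with loess. Each line gives the 250 bases before the start site from RefSeq (GRCr8), 5′ to 3′ along the gene's strand, and capitals mark matches to any of 5 motifs.
Cat (chr3:110329527-110329776, minus strand): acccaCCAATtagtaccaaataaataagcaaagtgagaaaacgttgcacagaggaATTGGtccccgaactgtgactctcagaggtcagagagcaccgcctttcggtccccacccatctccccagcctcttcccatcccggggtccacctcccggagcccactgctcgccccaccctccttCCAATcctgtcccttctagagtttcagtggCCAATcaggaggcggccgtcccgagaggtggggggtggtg
Sod2 (chr1:50050169-50050418, minus strand): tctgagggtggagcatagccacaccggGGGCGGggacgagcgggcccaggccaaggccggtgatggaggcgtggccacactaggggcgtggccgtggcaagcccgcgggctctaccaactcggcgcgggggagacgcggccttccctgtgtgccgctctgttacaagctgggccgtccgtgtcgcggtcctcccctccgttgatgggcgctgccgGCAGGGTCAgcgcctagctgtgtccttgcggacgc
Gpx1 (chr8:117905212-117905461, plus strand): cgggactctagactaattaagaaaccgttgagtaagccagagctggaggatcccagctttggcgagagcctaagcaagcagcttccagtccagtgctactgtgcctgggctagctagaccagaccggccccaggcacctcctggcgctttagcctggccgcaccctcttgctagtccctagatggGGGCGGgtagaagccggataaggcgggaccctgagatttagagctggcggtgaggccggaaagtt

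The motifs, searched on both strands, were the GC box GGGCGG, the CCAAT box (CCAAT), the TATA box (TATAAA), the core of the antioxidant response element (TGACNNNGC) and the AP-1 site (TGACTCA). They were chosen with the sequences and values known. The Cat window held 4 CCAAT boxes and no match to the other motifs. The Sod2 window held 1 GC box and 1 antioxidant response element core, on the opposite strand, and the Gpx1 window 1 GC box. Of 33465 rat windows of this length, 34.0% held a CCAAT box, 30.5% a GC box, 12.9% a TATA box, 10.1% the antioxidant response element core and 4.05% the AP-1 site. A match describes the letters and is no evidence of binding. The table used here gave windows for 8 of the 10 genes.

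None of the 11 probes passed the threshold, a Benjamini-Hochberg adjusted p of 0.05 over all tested probes in limma, in any of the 4 comparisons with vehicle or the 6 comparisons between treatments. The share of all tested probes that passed was 2.19% for CAT-SKL, 0% for ADDL, 0% for CAT-SKL+ADDL and 0.296% for ADDL+CAT-SKL against vehicle, and 0% in each comparison between treatments. These totals depend on the processing: after CAT-SKL 553 probes passed, but 2 without CAT-SKL 1 and 0 with the deposited log ratio. The 75 probes after ADDL+CAT-SKL became 0 with the deposited log ratio and when either array of CAT-SKL or of ADDL was left out, and the 0 after ADDL became 315 when either CAT-SKL array was left out. With loess, over the 8 arrays the members' log2 ratios ran from -0.48 (Cat in ADDL 1) to 0.37 (Sod2 in ADDL 1). With the deposited log ratio they ran from -0.96 (Gpx3 in ADDL 1) to 0.61 (Sod3 in ADDL 2). With loess, Sod2 had the smallest adjusted p of the members in 3 of the comparisons with vehicle and Glrx in that of CAT-SKL+ADDL. The bulk RNA cannot tell fewer cells of a type from less RNA per cell.

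At an unadjusted p below 0.05, 3 of the 11 probes differed from vehicle after CAT-SKL (Sod2, Glrx and Gpx7, all higher), beside 20.9% of all tested probes. After ADDL 6 of 11 did, beside 18.7%, with Sod2, Gpx1 and Sod3 higher and Cat, Gpx3 and the second Gpx4 probe lower. After CAT-SKL+ADDL it was 2 of 11 (Sod2 and Glrx, higher), beside 11.1%. After ADDL+CAT-SKL it was 6 of 11, beside 17.1%, with Sod2, Glrx and Sod1 higher and Cat, the first Gpx4 probe and Gpx8 lower. The median log2 ratio of the 11 probes was 0.059, 0.0045, 0.10 and -0.12 in these treatments, in the same order, against -0.0027, -0.0030, -0.0055 and -0.0037 over all tested probes. With 1 probe per gene, the brighter for Gpx4, the median of the 10 genes was 0.081, 0.055, 0.12 and 0.0023. Members thus lay on both sides of vehicle in each treatment.

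**Figure D1:**
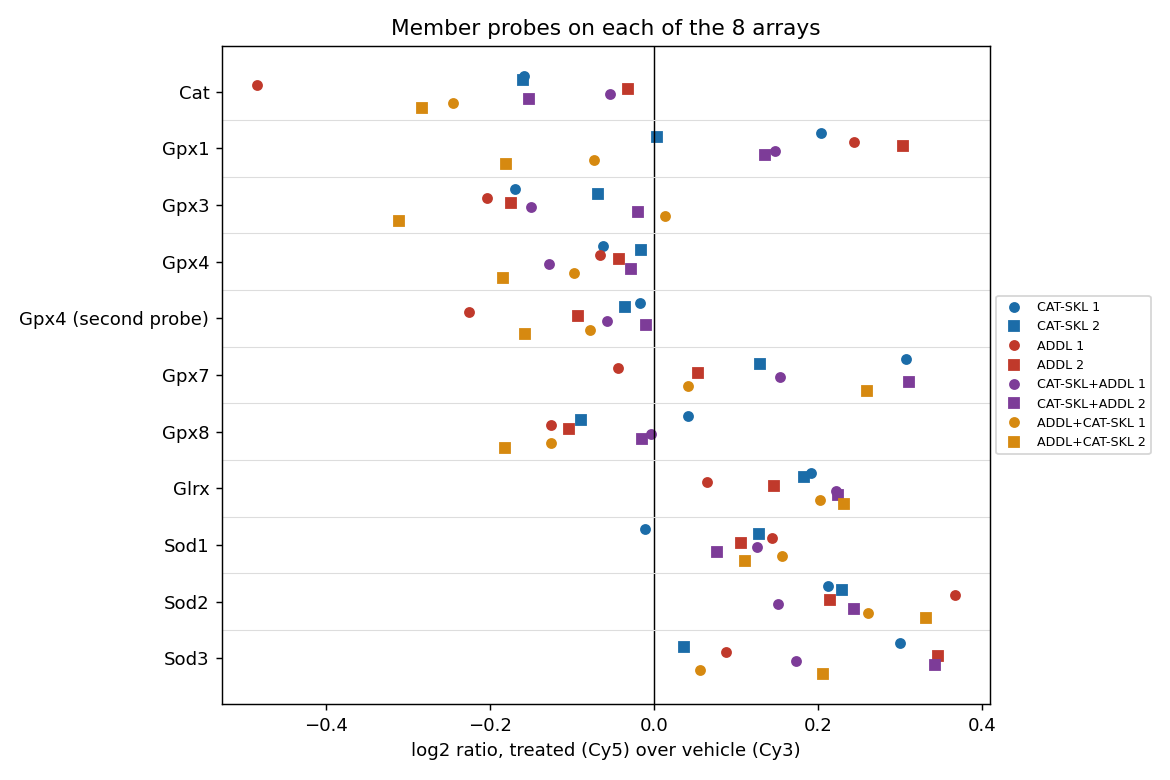
Log2 ratio of treated over vehicle RNA (x axis) for each of the 11 probes (rows) on each array; colours are treatments, circles replicate 1 and squares replicate 2. Sod2, Sod3 and Glrx lie right of 0 on all 8 arrays, Cat and both Gpx4 probes left of 0 on all 8, and Gpx1 is spread from -0.18 to 0.30.

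Of the 11 probes, 3 lay above vehicle on all 8 arrays (Sod2, Sod3 and Glrx) and 3 below on all 8 (Cat and both Gpx4 probes). Over all tested probes 7.12% lay above on all 8 and 7.99% below. The arrays share the vehicle treatment and the dye orientation, so a dye effect of a probe cannot be told apart from a change common to the treatments, and the 8 signs are not independent. With median centring of each array, Cat lay below vehicle on 7 arrays, the first Gpx4 probe on 2 and the second on 3. With the deposited log ratio the second Gpx4 probe lay below on 4.

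Catalase lay below vehicle on every array with loess. The log2 ratio of Cat was -0.16 on CAT-SKL 1 and -0.16 on CAT-SKL 2, and -0.054 and -0.15 on CAT-SKL+ADDL 1 and 2. After ADDL it was -0.48 on array 1 and -0.031 on array 2, and after ADDL+CAT-SKL it was -0.25 and -0.28. The ADDL arrays lay farther apart than the arrays of any other group. The 2 Cat spots on CAT-SKL+ADDL 1 were at -0.21 and 0.11. The fitted log2 ratio after ADDL was -0.26 ± 0.09 (limma, SE, n = 2, 95% interval -0.48 to -0.04, adjusted p = 0.201), which is 0.836 of the vehicle level; without ADDL 1 it was -0.031, and with the deposited log ratio -0.43. After ADDL+CAT-SKL it was -0.26 ± 0.09 (n = 2, 95% interval -0.48 to -0.05, limma adjusted p = 0.211). After CAT-SKL it was -0.16 ± 0.09 (n = 2, limma adjusted p = 0.392) and after CAT-SKL+ADDL -0.10 ± 0.13 (n = 1, limma adjusted p = 0.873), where the 2 arrays were counted as 1 sample with the spread of the other groups.

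From high to low the Cat ratios were ordered CAT-SKL+ADDL, CAT-SKL, ADDL and ADDL+CAT-SKL. Neighbours in this order differed by 0.056, 0.099 and 0.0066, each less than its standard error. Among neighbours, only the arrays of CAT-SKL+ADDL and CAT-SKL did not overlap. The ADDL+CAT-SKL arrays also lay below all arrays of CAT-SKL+ADDL and of CAT-SKL. ADDL+CAT-SKL against ADDL gave -0.0066 with a 95% interval of -0.31 to 0.30 (limma), so a change of either sign up to that size is not shown to be absent. For Cat, spot intensity in the vehicle channel ran from 163 to 199.5 scanner units, a median of 6.93 times the local background, and from 111 to 212.5 in the treated channel.

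**Figure D2:**
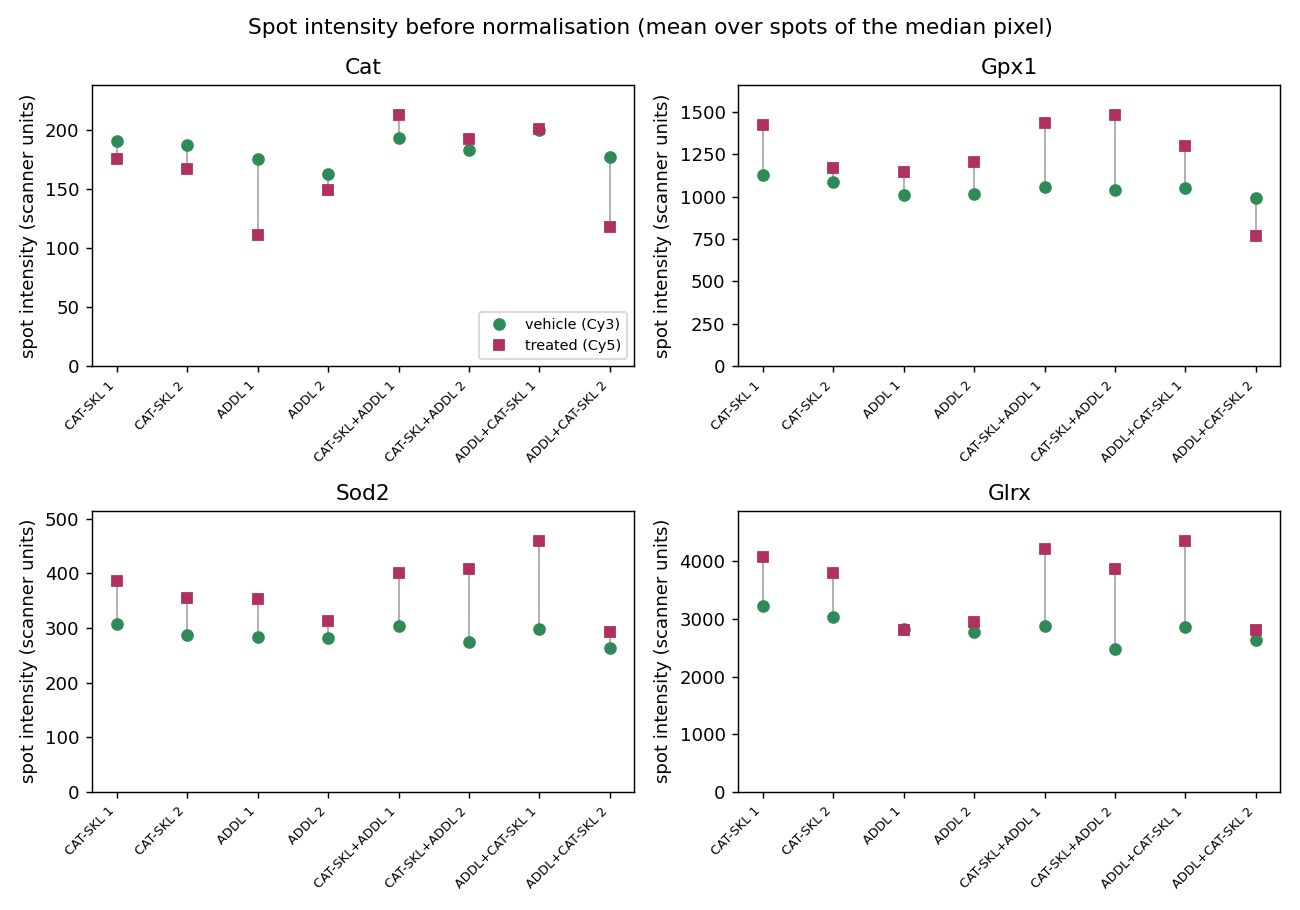
Spot intensity in scanner units (y axis, from 0) of Cat, Gpx1, Sod2 and Glrx on each array (x axis) before normalisation, vehicle channel as green circles and treated channel as red squares. The Cat vehicle values stay between 163 and 199.5 while the treated values reach down to 111 on ADDL 1 and 117.5 on ADDL+CAT-SKL 2; the whole treated channel of the latter was dimmer than on the other arrays, which the normalised ratios take into account.

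Superoxide dismutase 2, the mitochondrial enzyme, lay above vehicle on every array under each scaling. The log2 ratio of Sod2 was 0.21 and 0.23 on CAT-SKL 1 and 2, 0.37 and 0.21 on ADDL 1 and 2, 0.15 and 0.24 on CAT-SKL+ADDL 1 and 2, and 0.26 and 0.33 on ADDL+CAT-SKL 1 and 2. The ADDL+CAT-SKL arrays lay above those of CAT-SKL and of CAT-SKL+ADDL, and the other pairs of treatments overlapped. The 2 Sod2 spots on ADDL+CAT-SKL 2 were at 0.10 and 0.56, the lower of them below every CAT-SKL and CAT-SKL+ADDL array. The fitted ratio was 0.29 ± 0.06 after ADDL (limma, SE, n = 2, adjusted p = 0.0794) and 0.30 ± 0.06 after ADDL+CAT-SKL (n = 2, limma adjusted p = 0.0806), or 1.22 and 1.23 times vehicle. After CAT-SKL it was 0.22 ± 0.06 (n = 2, limma adjusted p = 0.0858) and after CAT-SKL+ADDL 0.20 ± 0.08 (n = 1, limma adjusted p = 0.430). No difference between treatments passed for Sod2: the 4 means lay within 0.099 of each other, a range smaller than in most tested probes (24.1% had a smaller one). When the 8 arrays were counted as 8 samples, Sod2 passed after CAT-SKL (limma adjusted p = 0.0423), ADDL (0.0292) and ADDL+CAT-SKL (0.0297), beside 7.67%, 4.02% and 3.49% of all tested probes. The CAT-SKL+ADDL arrays, which differed by about the noise between spots, then count as 2 samples in the spread shared by all groups.

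The other dismutases gave smaller or less steady values. Sod1, the cytosolic copper-zinc enzyme, had a log2 ratio of -0.010 on CAT-SKL 1 and between 0.078 and 0.16 on the other 7 arrays. Its 2 spots on ADDL+CAT-SKL 2 were at -0.16 and 0.38. Its fitted ratio was 0.059 ± 0.057 after CAT-SKL, 0.13 ± 0.06 after ADDL, 0.10 ± 0.08 after CAT-SKL+ADDL and 0.13 ± 0.06 after ADDL+CAT-SKL, with limma adjusted p from 0.283 to 0.744. The treatment means of Sod1 lay within 0.075 of each other with loess. With median centring they were 0.28, 0.14, 0.38 and 0.26 in that order, and with the deposited log ratio that of CAT-SKL turned to -0.023. Sod3, the extracellular enzyme, was above vehicle on every array but differed widely within treatments: its log2 ratio was 0.30 and 0.037 after CAT-SKL, 0.088 and 0.35 after ADDL, 0.17 and 0.34 after CAT-SKL+ADDL, and 0.056 and 0.21 after ADDL+CAT-SKL. The arrays of every pair of treatments overlapped. The Sod3 signal was a median of 2.72 times background in the vehicle channel (68 to 81 scanner units), and its largest fitted ratio, 0.26 ± 0.12 after CAT-SKL+ADDL, had a limma adjusted p of 0.490. With the deposited log ratio Sod3 was at 0.33 after CAT-SKL, 0.42 after ADDL and 0.39 after CAT-SKL+ADDL, with limma adjusted p from 0.296 to 0.639.

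Gpx1, the main cellular glutathione peroxidase, had the widest range of treatment means among the members with loess. Its log2 ratio was 0.20 on CAT-SKL 1 and 0.0039 on CAT-SKL 2, 0.24 and 0.30 on ADDL 1 and 2, and 0.15 and 0.14 on CAT-SKL+ADDL 1 and 2. On ADDL+CAT-SKL 1 and 2 it was -0.072 and -0.18, the only arrays below vehicle. ADDL alone was thus highest and ADDL+CAT-SKL lowest, with no overlap between these or between either and CAT-SKL+ADDL. After ADDL the fitted ratio was 0.27 ± 0.07 (limma, SE, n = 2, 95% interval 0.12 to 0.42, adjusted p = 0.0978), or 1.21 times vehicle, and after ADDL+CAT-SKL it was -0.13 ± 0.07 (n = 2, limma adjusted p = 0.378). With median centring ADDL+CAT-SKL 1 was above vehicle, at 0.12, and array 2 below, at -0.26, and CAT-SKL+ADDL, at 0.31, was 0.072 above ADDL instead of below it.

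ADDL+CAT-SKL against ADDL gave a log2 difference for Gpx1 of -0.40 ± 0.09 (limma, SE, 95% interval -0.61 to -0.19), or 0.757 of the ADDL level. The unadjusted p was 0.00245, but the adjusted p was 0.584, and 8.29% of all tested probes had an unadjusted p below 0.05 in that comparison. Under the alternatives the difference ran from -0.45 to -0.31, with limma adjusted p from 0.239 to 1.00. Against CAT-SKL the difference of ADDL+CAT-SKL was -0.23 ± 0.09 (limma adjusted p = 0.474). Between the orders of treatment, CAT-SKL+ADDL against ADDL+CAT-SKL, it was 0.27 ± 0.11 (limma adjusted p = 0.870). The range of the 4 treatment means of Gpx1, 0.40, was wider than that of 95.2% of tested probes, and the next among the members was Gpx7 with 0.23 (75.9%). In the order ADDL, CAT-SKL+ADDL, CAT-SKL, ADDL+CAT-SKL, neighbours differed by 0.13, 0.038 and 0.23, and the arrays of CAT-SKL+ADDL and CAT-SKL overlapped.

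Markers of glia also differed between the arrays. The median log2 ratio of the 10 measured of 11 listed astrocyte genes was 1.03 and 0.24 on CAT-SKL 1 and 2, 0.51 and 1.00 on ADDL 1 and 2, 0.88 and 0.83 on CAT-SKL+ADDL 1 and 2, and 0.31 and -0.041 on ADDL+CAT-SKL 1 and 2. Their summed normalised intensity in the treated channel was 18679 to 35002 after CAT-SKL, 23183 to 33211 after ADDL, 30735 to 30773 after CAT-SKL+ADDL and 14551 to 18960 after ADDL+CAT-SKL, against 14895 to 15888 in the vehicle channel. All 10 were well above background in both channels on every array. In the same order of arrays Gpx1 was at 0.20 and 0.0039, 0.24 and 0.30, 0.15 and 0.14, and -0.072 and -0.18. Oligodendrocyte lineage markers, 9 of 9 measured, had medians of 0.70 and 0.32, 0.30 and 0.47, 0.66 and 0.71, and 0.11 and -0.093 on the same arrays, with summed treated intensities of 2635 to 6866 against 3278 to 3706 in vehicle. The 10 tested microglia genes had a median of only 0.081 after CAT-SKL, with 0.16 and -0.018 on arrays 1 and 2. After CAT-SKL 3 of the 9 oligodendrocyte lineage genes passed as higher (Olig2, Pdgfra and Sox10), beside 2.19% of all tested probes in either direction. Of the 10 microglia genes 1 did, Fcer1g, at 0.57 ± 0.07 (limma adjusted p = 0.0246). None of the 4 passed without CAT-SKL 1 or with the deposited log ratio. The part of these cells in the Gpx1 values was not tested.

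The probes of Gpx1 and Glrx are printed 10 times on each array, which shows the error within an array. Over the 7 to 10 usable spots the SD of the Gpx1 ratio was 0.045 to 0.12 on 7 arrays and 0.19 on ADDL+CAT-SKL 2, where single spots ran from -0.44 to 0.052. Spots of the ADDL arrays ran from 0.074 to 0.44 and those of ADDL+CAT-SKL 1 from -0.15 to 0.087, overlapping at the edge. The SD of the Glrx spots was 0.052 to 0.089 on 7 arrays and 0.16 on ADDL+CAT-SKL 2. Such spots share 1 RNA sample and count only as its measurement error.

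**Figure D3:**
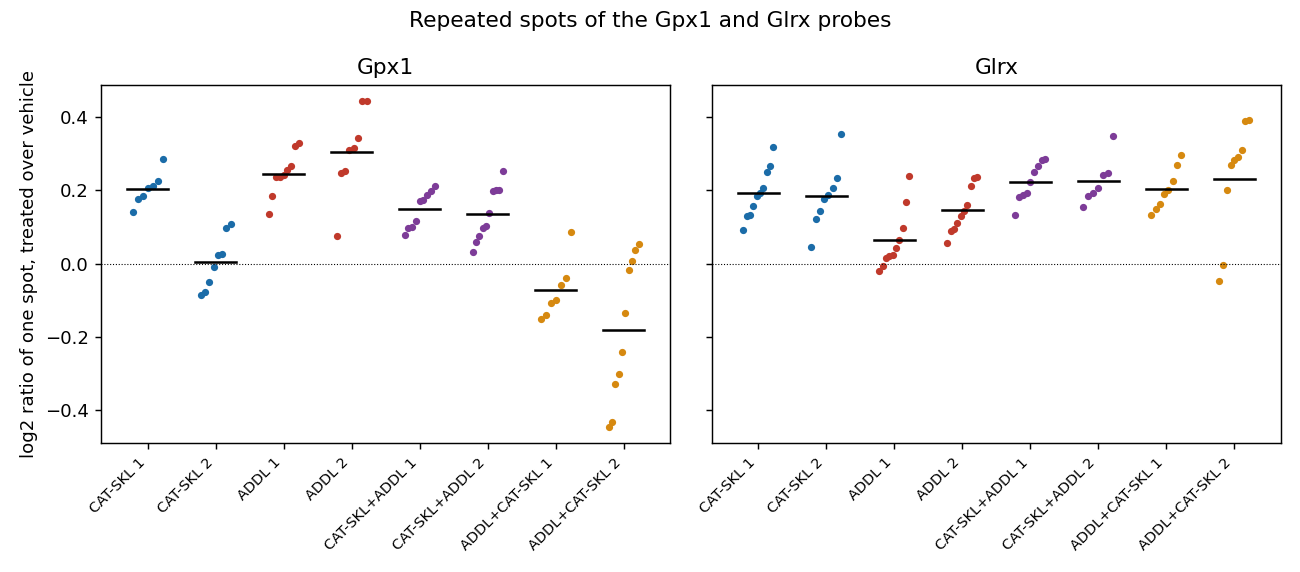
Log2 ratio of treated over vehicle (y axis) for each usable spot of the Gpx1 and Glrx probes on each array (x axis); colours are treatments and black bars the mean of an array. Gpx1 means are 0.24 and 0.30 on the ADDL arrays and -0.072 and -0.18 on the ADDL+CAT-SKL arrays, whereas all Glrx means lie between 0.064 and 0.23, and ADDL+CAT-SKL 2 has the widest scatter in both.

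Gpx4, which reduces lipid peroxides in membranes and guards against ferroptosis, had ratios close to vehicle. The first probe gave log2 ratios of -0.062 and -0.015 after CAT-SKL, -0.066 and -0.043 after ADDL, -0.13 and -0.028 after CAT-SKL+ADDL, and -0.098 and -0.18 after ADDL+CAT-SKL. The second probe gave -0.017 and -0.035, -0.23 and -0.092, -0.057 and -0.0099, and -0.078 and -0.16 in the same order. The probes differed most after ADDL, with fitted ratios of -0.054 ± 0.054 and -0.16 ± 0.06. No Gpx4 value passed (limma adjusted p from 0.196 to 0.946 over both probes), and with median centring the first probe lay above vehicle on 6 of 8 arrays.

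**Figure D4:**
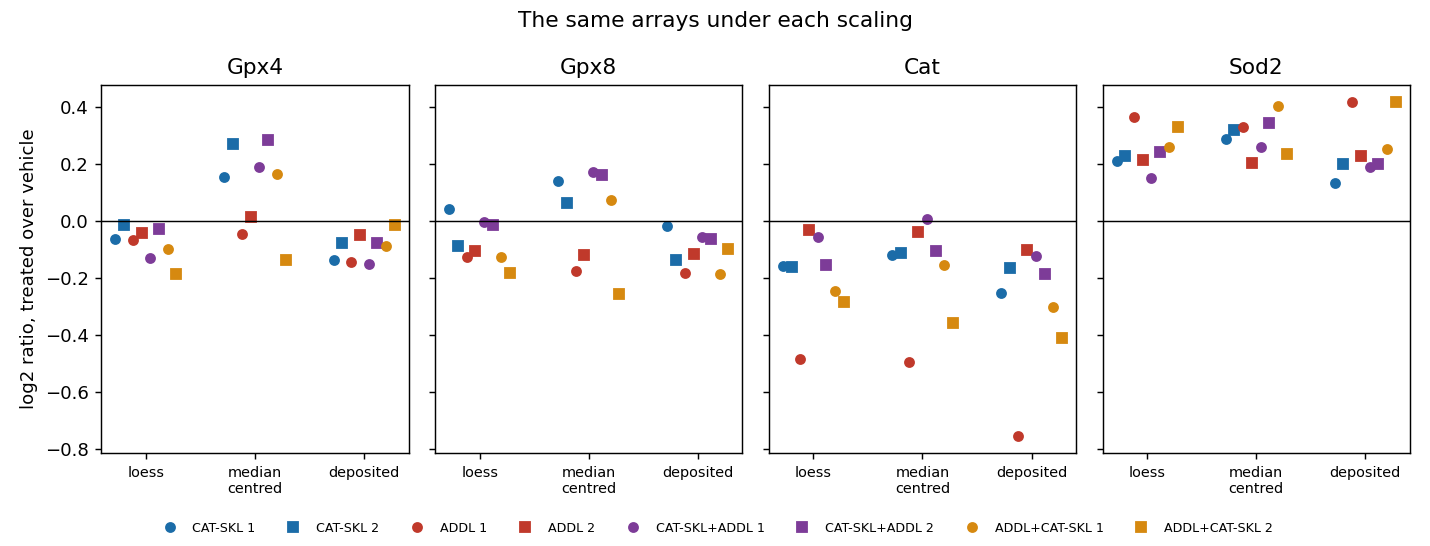
Log2 ratio of treated over vehicle (y axis) of the first Gpx4 probe, Gpx8, Cat and Sod2 on each array under 3 scalings (x axis): loess, median centring and the deposited log ratio; colours are treatments, circles replicate 1 and squares replicate 2. Sod2 stays above 0 on all 8 arrays in each scaling, while median centring puts Gpx4 above 0 on 6 arrays and Gpx8 on 5.

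Among the secreted and the endoplasmic reticulum peroxidases, Gpx3 and Gpx8 lay mostly below vehicle with loess and Gpx7 mostly above. Gpx3, the plasma form, had log2 ratios of -0.17 and -0.068 after CAT-SKL, -0.20 and -0.17 after ADDL, -0.15 and -0.019 after CAT-SKL+ADDL, and 0.014 and -0.31 after ADDL+CAT-SKL. It lay below vehicle on 7 of 8 arrays, at a signal only 2.50 times background (median, vehicle channel), and its lowest fitted ratio was -0.19 ± 0.08 after ADDL (limma adjusted p = 0.248). That value was -0.32 without background correction and -0.75 with the deposited log ratio (limma adjusted p of 0.194 and 0.262). Gpx7 had log2 ratios of 0.31 and 0.13 after CAT-SKL, -0.044 and 0.053 after ADDL, 0.15 and 0.31 after CAT-SKL+ADDL, and 0.041 and 0.26 after ADDL+CAT-SKL. The groups given CAT-SKL before or without ADDL were thus above both ADDL arrays, but CAT-SKL against ADDL gave 0.21 ± 0.10 with a limma adjusted p of 0.624. Gpx8, a membrane protein, lay between -0.18 (ADDL+CAT-SKL 2) and 0.042 (CAT-SKL 1), below vehicle on 7 of 8 arrays with loess and on 3 with median centring. Its lowest fitted ratio was -0.15 ± 0.06 after ADDL+CAT-SKL (limma adjusted p = 0.221).

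Glutaredoxin lay above vehicle throughout. The log2 ratio of Glrx was 0.19 and 0.18 after CAT-SKL, 0.064 and 0.15 after ADDL, 0.22 and 0.22 after CAT-SKL+ADDL, and 0.20 and 0.23 after ADDL+CAT-SKL. Both ADDL arrays lay below the other 6. The fitted ratio was 0.19 ± 0.05 after CAT-SKL (n = 2, limma adjusted p = 0.0967), 0.22 ± 0.05 after ADDL+CAT-SKL (n = 2, 0.104), 0.22 ± 0.07 after CAT-SKL+ADDL (n = 1, 0.313) and 0.11 ± 0.05 after ADDL (n = 2, 0.337). No difference between ADDL alone and a treatment with CAT-SKL passed: they were 0.083 (95% interval -0.090 to 0.25) for CAT-SKL, 0.12 (-0.093 to 0.33) for CAT-SKL+ADDL and 0.11 (-0.060 to 0.28) for ADDL+CAT-SKL, with limma adjusted p from 0.699 to 1.00. With median centring Glrx was at 0.34 after CAT-SKL (limma adjusted p = 0.0283) and 0.43 after CAT-SKL+ADDL (0.112). With 8 samples Glrx passed after CAT-SKL (limma adjusted p = 0.0441), CAT-SKL+ADDL (0.0196, beside 9.98% of all tested probes) and ADDL+CAT-SKL (0.0425). That setting counts the CAT-SKL+ADDL arrays, which differed by about the noise between spots, as 2 samples.

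**Figure D5:**
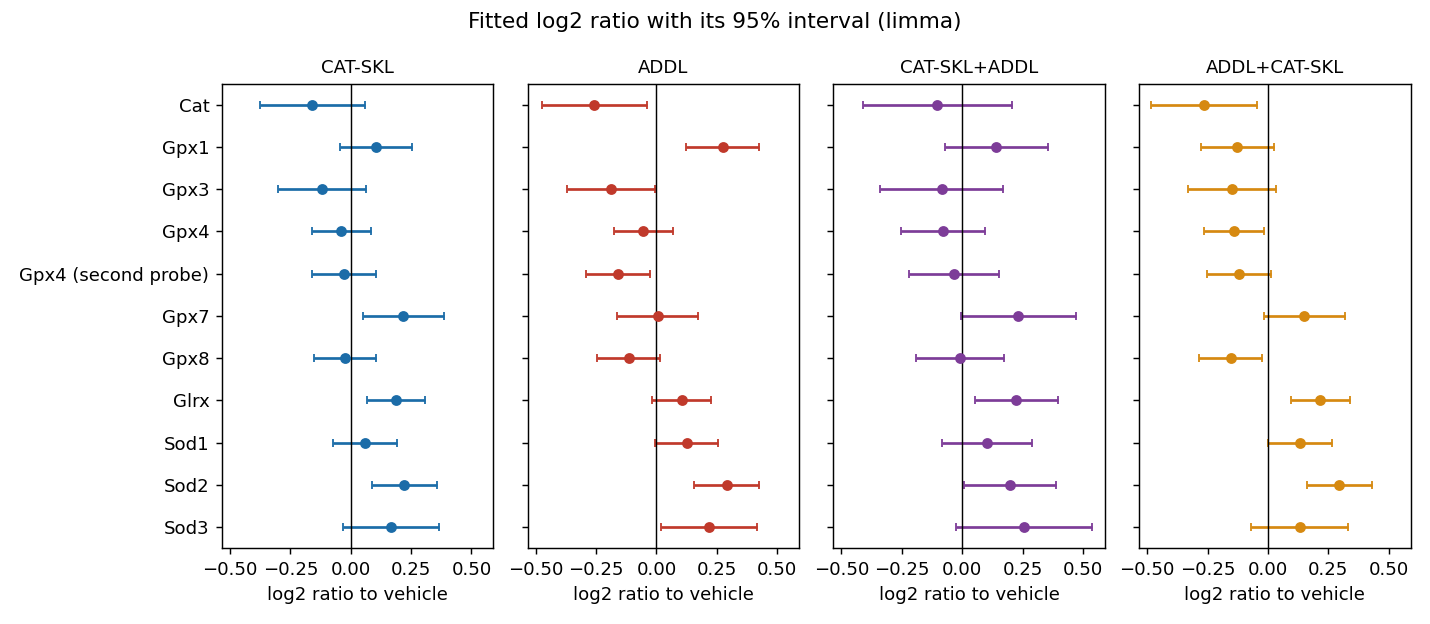
Fitted log2 ratio to vehicle (x axis) of each probe (rows) in each treatment (panels), with its 95% interval from limma as a bar. The intervals of Sod2 lie above 0 in all 4 treatments, those of Cat below 0 after ADDL and ADDL+CAT-SKL, and none of the ratios passed after adjustment over all tested probes.

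Between treatments, the arrays of 6 of the 11 probes did not overlap for CAT-SKL against ADDL (39.8% of all tested probes) and of 6 for CAT-SKL+ADDL against ADDL (47%). They were 4 for ADDL+CAT-SKL against ADDL (39.4%), 2 for CAT-SKL+ADDL against CAT-SKL (32.6%), 7 for ADDL+CAT-SKL against CAT-SKL (40.7%) and 5 between the orders of treatment (49.4%). At an unadjusted p below 0.05, Gpx1 was the single member to differ in the 3 comparisons with ADDL+CAT-SKL, beside 8.29% of all tested probes against ADDL, 9.89% against CAT-SKL and 5.59% between the orders. None did in the other 3, beside 8.55% for CAT-SKL against ADDL, 3.8% for CAT-SKL+ADDL against ADDL and 0.38% for CAT-SKL+ADDL against CAT-SKL. The smallest limma adjusted p of a member was 0.474 to 1.00 in these 6 comparisons. The comparisons with vehicle share the vehicle treatment, and those between treatments share groups, so they are given side by side. Single and sequential treatments lasted for different times and lay in different rows of the slide, which cannot be told apart from the agents.

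Other genes of the same chemistry were taken from lists. Of the 7 lists, 3 held a call, all after CAT-SKL, where 2.19% of all tested probes passed. None of the 3 genes called, Txnip, Pex13 and Cyba, passed without CAT-SKL 1 (limma adjusted p of 0.407 to 0.515) or with the deposited log ratio (0.186 to 0.242). Of 13 peroxiredoxin and thioredoxin genes, 1 rose and 0 fell after CAT-SKL and none passed after the other treatments in limma. The gene that rose was Txnip, an inhibitor of thioredoxin, at 0.46 ± 0.08 (limma adjusted p = 0.0398). After ADDL it was at 0.48 ± 0.08 (limma adjusted p = 0.0784), after CAT-SKL+ADDL at 0.51 and after ADDL+CAT-SKL at 0.18. Srxn1, which restores oxidised peroxiredoxins, was at -0.32 ± 0.06 after ADDL (limma adjusted p = 0.0784). Of 13 peroxisome import genes, 1 rose after CAT-SKL: Pex13, a docking protein of the import machinery (0.31 ± 0.06, limma adjusted p = 0.0465). Pex13 was at 0.25 after ADDL, 0.29 after CAT-SKL+ADDL and 0.10 after ADDL+CAT-SKL, none past the threshold. Pex7, the receptor for a second kind of import signal, was at 0.30 ± 0.06 after CAT-SKL (limma adjusted p = 0.0531) and from 0.17 to 0.23 after the other treatments. Of 15 tested genes whose products make superoxide or hydrogen peroxide, 1 rose after CAT-SKL: Cyba, a subunit of NADPH oxidase (0.95 ± 0.14, limma adjusted p = 0.0313). Cyba was at 0.73 after ADDL, 0.97 after CAT-SKL+ADDL and 0.32 after ADDL+CAT-SKL, none past the threshold. For none of the 3 genes called did a difference between treatments pass. None of 9 glutathione genes, 11 transcriptional regulators, 4 selenocysteine genes or 5 relatives of the members (Gpx2, Gpx6, Ccs, Glrx3 and Glrx5) passed in any treatment. Among them Gclc, of glutathione synthesis, was at 0.34 ± 0.07 after ADDL (limma adjusted p = 0.0794) and from 0.21 to 0.25 after the other treatments. Slc7a11, the cystine importer, was at 0.50 ± 0.10 after ADDL+CAT-SKL (limma adjusted p = 0.0764) and from 0.32 to 0.40 after the other treatments. The median log2 ratio of these 7 lists in the 4 treatments lay between -0.086 and 0.11.

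The genes whose log2 ratios followed those of Cat most closely over the 7 samples were Tmpo (Pearson r = 0.991), Lpcat3 (0.984), Rnd1 (0.982), Mphosph6 (0.979) and Paip2 (0.959), among 9037 probes with a symbol and at least 0.5 times the range of Cat over these samples. Those closest to Gpx1 were Nacc2 (0.977), Cd302 (0.974), Spcs2 (0.971), Bnip3l (0.971) and Dbp (0.969), among 8213 probes. These values are descriptions over 7 samples that share the vehicle treatment. All 5 genes named for Cat were lowest on ADDL 1, as was Cat, with Tmpo at -0.13, Lpcat3 at -0.33 and Rnd1 at -0.45. These 5 were picked from 9037 probes for following Cat, so this comes with the choice and is no separate result.

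Of the whole series, 9 of 9 tested neuron genes were well above background in both channels on all arrays. All 10 tested astrocyte genes were too, so such a check shows neuron RNA but not the share of neurons. The arrays of CAT-SKL+ADDL differed from each other by 0.0855 (SD on the log2 scale over 13283 probes with 2 spots), against 0.0849 from spot noise. That difference was not shared between the first and the second spot of a probe (r = 0.0072), whereas r was 0.291 to 0.709 in the 27 other pairs of arrays, so they were averaged into 1 sample and 7 samples entered the fit. The labels call arrays of a group biological replicates and say nothing of separate dissections, so the p-values cover only the spread seen among these samples, which may be technical. The share of probes well above background was 73.3% to 81.0% in the treated channel and 71.5% to 77.4% in the vehicle channel. The number of arrays limits the precision.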

How the data were processed

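RNA of treated (Cy5) and vehicle-treated (Cy3) rat neurons was measured on 8 Agilent arrays of 1 slide. The authors read each spot's intensity with Agilent Feature Extraction 11.5, per the submitters' processing notes; their deposited log10 ratio is used as an alternative, and it matched the value table. From the median spot intensity, ratios were computed with limma 3.58.1 in R 4.3.3: normexp with offset 50, loess within arrays without control spots, outlier spots left out, and spots of a probe averaged. The 25296 tested probes had a signal well above background, in Cy5 or Cy3, on 2 or more arrays. The arrays of CAT-SKL+ADDL were averaged (7 samples). With lmFit and eBayes each log2 ratio was tested against 0, and treatments against each other. Benjamini-Hochberg adjustment ran over all tested probes with a threshold of 0.05. If the vehicle RNA was 1 pool, which is not given, the test against 0 leaves out the vehicle's own spread. Intervals are 95%. Symbols came from RefSeq (GRCr8); 17998 of 30367 probes had one, and where a probe lies in its gene was not used here.

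All member probes are described. Members and lists were chosen with earlier results of these data known; of each list, the genes with the smallest p could be named. The fit was tested on simulated data. Labels share replicate numbers, but the main fit did not pair the samples by them. Alternatives were background correction, scaling, the deposited ratio, filters, 8 samples, a replicate block and leaving out each array.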

Additional observations from a re-analysis of the deposited data

How the results depend on the processing

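The members kept their count of 0 probes past the threshold without background correction, with the deposited log ratio, with no filter or a stricter one, with 1 probe per gene, and when each array was left out in turn (0 to 0 probes in each comparison). With median centring 2 probes passed after CAT-SKL (Sod2 and Glrx; 1846 probes in all, against 553). With 8 separate samples 2 passed after CAT-SKL (Sod2, Glrx), 2 after ADDL (Gpx1, Sod2), 1 after CAT-SKL+ADDL (Glrx) and 2 after ADDL+CAT-SKL (Sod2, Glrx), where 1939, 1016, 2525 and 883 probes passed in all, against 553, 0, 0 and 75. The replicate block gave 0 member probes in each comparison; with 8 separate samples the replicate block gave 1 after ADDL (Sod2), 1 after CAT-SKL+ADDL (Glrx), 1 after ADDL+CAT-SKL (Sod2) and 0 after CAT-SKL. Over all probes, the 553 passing after CAT-SKL became 443 without background correction, 257 with no filter on dim probes, 7 with the replicate block and 0 with the deposited ratio, and 2 to 553 with an array left out; the 75 after ADDL+CAT-SKL became 0 in each of these 4 settings, and the 0 after ADDL became 428 with median centring and 315 when either CAT-SKL array was left out. The 7 list genes that passed after CAT-SKL kept their calls with 8 separate samples and median centring. Without background correction 6 kept them, with no filter on dim probes 2, and with the replicate block or the deposited ratio 0. Calls were also lost when an array of CAT-SKL, ADDL or ADDL+CAT-SKL was left out. Same-numbered arrays of different treatments deviated with r between -0.191 and 0.0678, which cannot exclude a pairing. The arrays of CAT-SKL+ADDL differed by about spot noise, so the r values that use them could not show one. With 8 separate samples these arrays counted as 2 samples in the spread shared by all groups. The causes were not tested. Signs of member values, none of them past the threshold, changed for 22 of 110 values with median centring and 15 of 110 with the deposited ratio. Cat after ADDL ranged from -0.48 to -0.031, its value on either array alone. With 2 arrays a group and no dye swap, the signal of Gpx3 and Sod3, 2.50 and 2.72 times background, limits their ratios.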
